A study of Oryza sativa Japonica Group and Oryza sativa Indica Group with 10 samples.

Results

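OsKAO, CYP714D1, OsABA8ox2 and CYP734A4 encode rice cytochrome P450 enzymes that make or break down growth hormones. They were found as every probe set paired with exactly 1 gene whose symbol or synonym was one of these 4 names. This gave 4 probe sets, 1 for each of the 4 genes, of 57258 rice probe sets and 17905 genes with such a pairing. The 4 genes were selected on the cultivar differences of these same signals, as deposited and scaled, so those differences are given as a description and were not tested.

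The study set Nipponbare, a japonica cultivar, against 93-11, an indica cultivar, on Affymetrix GeneChip rice arrays, to read sequence and expression differences from the same hybridisations. Young panicles of 2 cm were sampled from 5 biological replicates of each cultivar, and 1 array with 1 colour was hybridised with labelled cRNA per replicate. Both groups were named cultivars with no transgene and no treatment given in the labels, and neither plant age nor the hour of harvest was given in the labels or methods. The array was designed mainly on transcripts of japonica rice. Less transcript in 93-11 and a probe that mismatches the 93-11 sequence both lower the signal there, and they cannot be told apart with these values.

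Cytochrome P450 enzymes are haem proteins that oxidise small molecules, and several of them set hormone levels in plants. Gibberellins promote the elongation of stems and panicle axes. Abscisic acid restrains growth and mediates stress responses, and brassinosteroids promote cell expansion and shape leaf angle, internodes and grains. OsKAO, an ent-kaurenoic acid oxidase, acts in gibberellin synthesis, and CYP714D1, known as EUI from the rice mutant with an elongated uppermost internode, inactivates gibberellins. OsABA8ox2 is an abscisic acid 8'-hydroxylase, which starts the breakdown of that hormone, and CYP734A4 inactivates brassinosteroids by oxidation.

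Both gibberellin genes had lower signals in 93-11 than in Nipponbare, and the abscisic acid and brassinosteroid breakdown genes had higher signals. As deposited, the Nipponbare mean was 3.19 times the 93-11 mean for OsKAO and 3.82 times for CYP714D1, while the 93-11 mean was 2.05 times the Nipponbare mean for OsABA8ox2 and 2.13 times for CYP734A4. For none of the 4 genes did the 5 values of one cultivar overlap those of the other. Of all rice probe sets, 1.47% were higher in 93-11 without overlap and 10.4% were lower without overlap in the deposited values.

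The arrays themselves were not at one level. The mean signal per array, trimmed by 2% at the top and the bottom, was 277 ± 62.4 in Nipponbare and 213 ± 18.5 in 93-11 (SD, n = 5 each; exact two-sided permutation test, p = 0.0317), and Nipponbare replicate 2 was highest at 377. The p rose to 0.063 when any of 6 arrays was left out, and the difference went from -64.2 to -39.2 without Nipponbare replicate 2. Every value is therefore given as deposited and after scaling each array to the common trimmed mean. Differences are in log2(signal + 16), 93-11 minus Nipponbare, with the standard error (SE) of a limma fit over all rice probe sets. The median difference of all rice probe sets was -0.16 as deposited and 0.03 after scaling. As deposited, limma (adjusted p under 0.05) placed 951 of the 57258 rice probe sets (1.66%) above Nipponbare in 93-11 and 6788 (11.9%) below it, against 4490 (7.84%) and 5274 (9.21%) after scaling.

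The arrays numbered 5 of both cultivars had the highest ratios of the 3' to the 5' probe set of actin, a measure that rises when RNA or its copies are shortened. The ratio was 4.54 in Nipponbare replicate 5 and 4.84 in 93-11 replicate 5, and 2.74 to 3.77 on the other 8 arrays. The same ratio of GAPDH was also high on them, at 6.15 on 93-11 replicate 5 and 5.72 on Nipponbare replicate 5. It was highest on 93-11 replicate 1, at 6.31, and 2.82 to 4.74 on the remaining arrays. Young panicle and inflorescence meristem genes were well detected, with 14 of 18 probe sets at log10 signals over 2.5 in each cultivar. Their summed deposited signal was 38363 to 62766 in Nipponbare and 31353 to 41817 in 93-11. Green leaf genes moved with cultivar, with a summed signal of 13329 to 21715 in Nipponbare and 1011 to 3116 in 93-11. Much of the Nipponbare sum came from 1 probe set, of CAB2R, with a mean of 8948 in Nipponbare and 573 in 93-11. Of the 13 green leaf probe sets, 2 were at log10 signals over 2.5 in each cultivar. On each scale 8 of the 13 were called lower, with 1 called higher after scaling. Of all rice probe sets, 11.9% were called lower as deposited and 9.21% after scaling, when 7.84% were called higher. None of 5 tapetum and pollen and none of 9 endosperm probe sets passed that level in both cultivars, and their summed signals were 98.2 to 202 and 68.4 to 241 in Nipponbare and 85.5 to 126 and 83.3 to 149 in 93-11. The part of these differences in the values of the 4 genes was not tested. In whole panicles, fewer cells of a type and less RNA per cell cannot be told apart.

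OsKAO (probe set Os.10689.1.S1_at, chromosome 6 of the RefSeq assembly) oxidises ent-kaurenoic acid on the route to the first gibberellin. Its deposited signals in Nipponbare replicates 1 to 5 were 131.7, 236.5, 193.6, 128.7 and 95.0. In 93-11 they were 52.0, 46.2, 47.6, 38.3 and 62.3. The lowest Nipponbare array was 1.53 times the highest 93-11 array, and both were the arrays numbered 5.

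The means of OsKAO were 157 ± 56.9 in Nipponbare and 49.3 ± 8.80 in 93-11 (SD, n = 5 each), a difference of -1.36 (SE 0.23). After scaling they were 136 ± 26.9 and 56.8 ± 10.01, a difference of -1.06 (SE 0.16). Scaling lowered the coefficient of variation in Nipponbare from 36.2% to 19.7% and left that in 93-11 at 17.6%. Without both arrays numbered 5, which stand closest together, the difference was -1.57 as deposited and -1.19 after scaling.

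**Figure D1:**
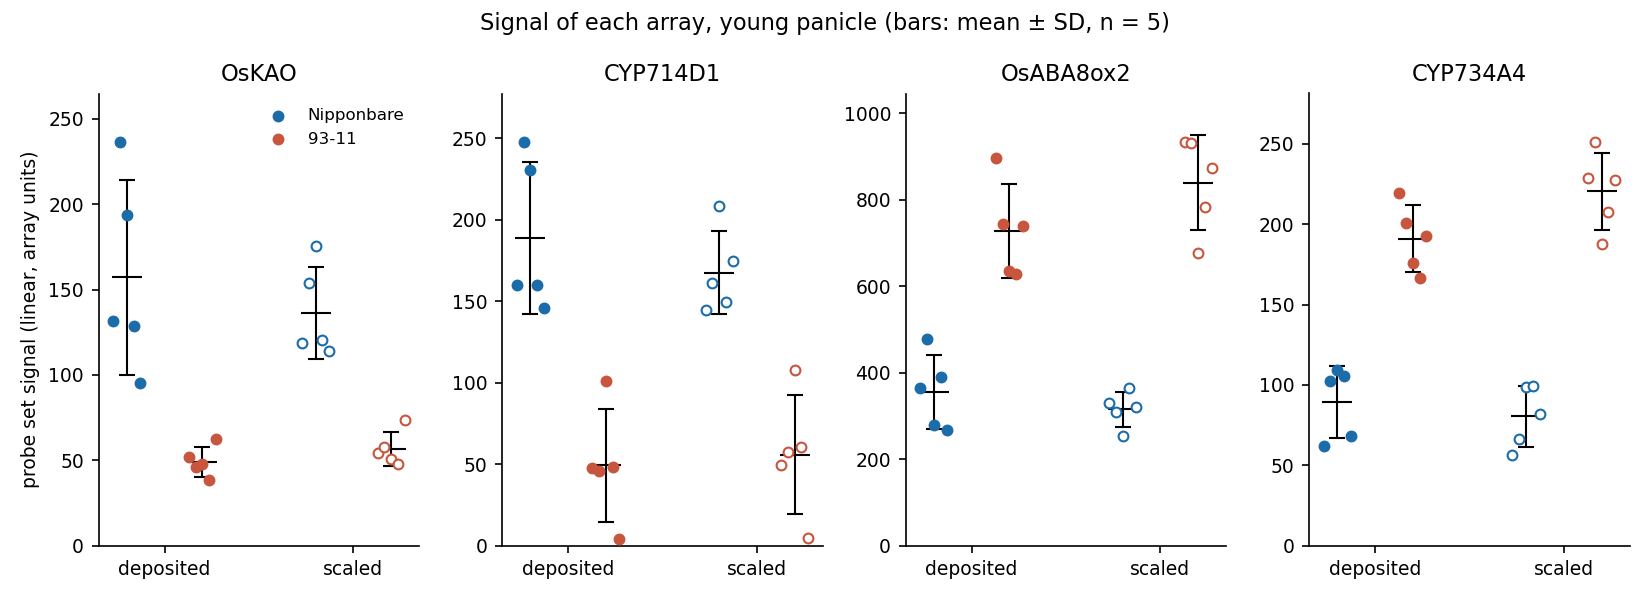
Linear probe set signal of each array for the 4 genes, with Nipponbare in blue and 93-11 in red, filled points as deposited and open points after scaling to a common trimmed mean. Black bars give the mean and SD of 5 arrays. For each gene the cultivars do not overlap on either scale, and the lowest point of CYP714D1 is 93-11 replicate 5 at 3.80 as deposited.

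CYP714D1 (probe set Os.56168.1.S1_at, chromosome 5) epoxidises gibberellins to inactive forms. Its deposited signals in Nipponbare replicates 1 to 5 were 160.2, 247.7, 230.2, 159.7 and 145.6. In 93-11 they were 47.5, 45.7, 101.1, 48.5 and 3.80. Replicates 1, 2 and 4 of 93-11 lay within a narrow band, replicate 3 stood above them and replicate 5 was near the bottom of the array's range, whereas Nipponbare replicate 5 was not set apart from its group.

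The means of CYP714D1 were 189 ± 46.7 and 49.3 ± 34.5 (SD, n = 5 each), a difference of -1.82 (SE 0.36), and 168 ± 25.6 and 55.9 ± 36.8 after scaling, a difference of -1.55 (SE 0.36). The size rested in part on 93-11 replicate 5. Without that array the 93-11 mean was 60.7 ± 26.9 (SD, n = 4) as deposited, the Nipponbare mean was 3.11 times the 93-11 mean in place of 3.82 times, and the difference was -1.44. After scaling the difference without it was -1.15. The highest 93-11 array remained below the lowest Nipponbare array, which was 1.44 times as high as deposited and 1.34 times as high after scaling.

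OsABA8ox2 (probe set Os.50329.1.S1_s_at, chromosome 8) hydroxylates abscisic acid, the first step of its main breakdown route. The suffix s_at marks a probe set whose probes match more than 1 transcript, so related transcripts can add to its signal. Its deposited signals in Nipponbare replicates 1 to 5 were 365.9, 477.2, 280.1, 389.2 and 267.0. In 93-11 they were 896.4, 743.6, 634.7, 628.5 and 740.5. The lowest 93-11 array was 1.32 times the highest Nipponbare array, which was replicate 2, the array of highest trimmed mean.

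The means of OsABA8ox2 were 356 ± 86.0 and 729 ± 109 (SD, n = 5 each), a difference of 1.02 (SE 0.18). After scaling they were 316 ± 40.3 and 840 ± 109, a difference of 1.37 (SE 0.12), and the gap between the cultivars widened to 1.86 times. Its SE after scaling was the smallest of the 4 genes. It was also the only one of the 4 whose log10 signal averaged over 2.5 in each cultivar as deposited, at 2.54 in Nipponbare and 2.86 in 93-11. After scaling, the Nipponbare mean lay just under that level. Without both arrays numbered 5 the difference was 0.92 as deposited and 1.36 after scaling.

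CYP734A4 (probe set Os.6960.1.S1_at, chromosome 6) converts brassinosteroids to inactive products. Its deposited signals in Nipponbare replicates 1 to 5 were 62.3, 102.3, 109.2, 105.8 and 68.1. In 93-11 they were 219.3, 200.5, 175.6, 166.4 and 192.8. Nipponbare replicates 1 and 5 lay below the other three of that cultivar, and the lowest 93-11 array was 1.52 times the highest Nipponbare array.

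The means of CYP734A4 were 89.5 ± 22.5 and 191 ± 20.8 (SD, n = 5 each), a difference of 0.99 (SE 0.19). After scaling they were 80.4 ± 19.2 and 220 ± 24.0, a difference of 1.31 (SE 0.15), with a gap of 1.89 times. Its variation in Nipponbare moved little with scaling, from 25.1% to 23.8%, and was 10.9% in 93-11 on both scales. Without both arrays numbered 5 the difference was 0.91 as deposited and again 1.31 after scaling.

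**Figure D2:**
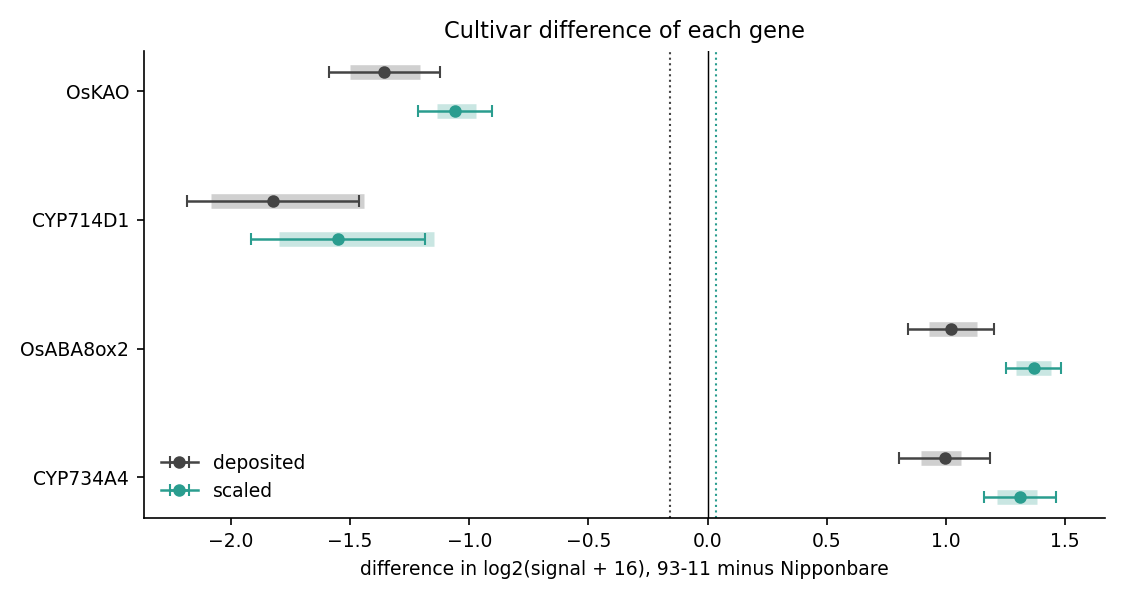
Difference between cultivars in log2(signal + 16), 93-11 minus Nipponbare, for the 4 genes as deposited (grey) and scaled (green). Points and thin bars are the estimate and its SE from 10 arrays, wide pale bars are the range when each array is left out in turn, and dotted lines are the medians of all rice probe sets. CYP714D1 has the widest leave-one-out range, from -2.08 to -1.44 as deposited.

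Scaling moved all 4 differences upward, which made the gibberellin genes differ less and the other pair differ more. After scaling the Nipponbare mean was 2.40 times the 93-11 mean for OsKAO and 3.00 times for CYP714D1, and the 93-11 mean was 2.66 times the Nipponbare mean for OsABA8ox2 and 2.74 times for CYP734A4. The share of rice probe sets without overlap after scaling was 6.55% higher and 8.02% lower in 93-11. Within cultivars, the pooled SD of the scaled log2 values was 0.22 for OsKAO, 0.69 for CYP714D1, 0.19 for OsABA8ox2 and 0.23 for CYP734A4. The median over all rice probe sets was 0.29 at a mean log10 signal of 1.5 to 2.0, 0.23 at 2.0 to 2.5 and 0.19 at 2.5 to 3.0. OsABA8ox2 and CYP734A4 thus varied about as much between replicates as other probe sets of their level did, and CYP714D1 varied more. OsKAO, at 0.219, lay just below the lower quartile of 0.225 for a mean log10 signal of 1.5 to 2.0.

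Deviations from the cultivar mean show which arrays carried that spread. On 93-11 replicate 3, CYP714D1 deviated by 0.99 from its cultivar mean and OsABA8ox2 by -0.29. On Nipponbare replicate 3 they deviated by 0.30 and -0.29. On 93-11 replicate 5, CYP714D1 deviated by -1.60 and OsKAO by 0.31. Across the 10 arrays, the deviations of CYP714D1 and OsABA8ox2 had a Pearson r of -0.48, and of -0.89 over the 8 arrays without those numbered 5. The other 5 pairs lay between -0.43 and 0.32 over 10 arrays, and between -0.41 and 0.41 over those 8. As deposited, CYP714D1 and OsABA8ox2 had an r of -0.04 over 10 arrays and of -0.23 over those 8, the latter computed after the scaled value was seen. The other 5 pairs as deposited lay between 0.05 and 0.65 over 10 arrays, highest for OsKAO with CYP734A4. These coefficients are descriptions over arrays that share a scaling step and have no test.

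**Figure D3:**
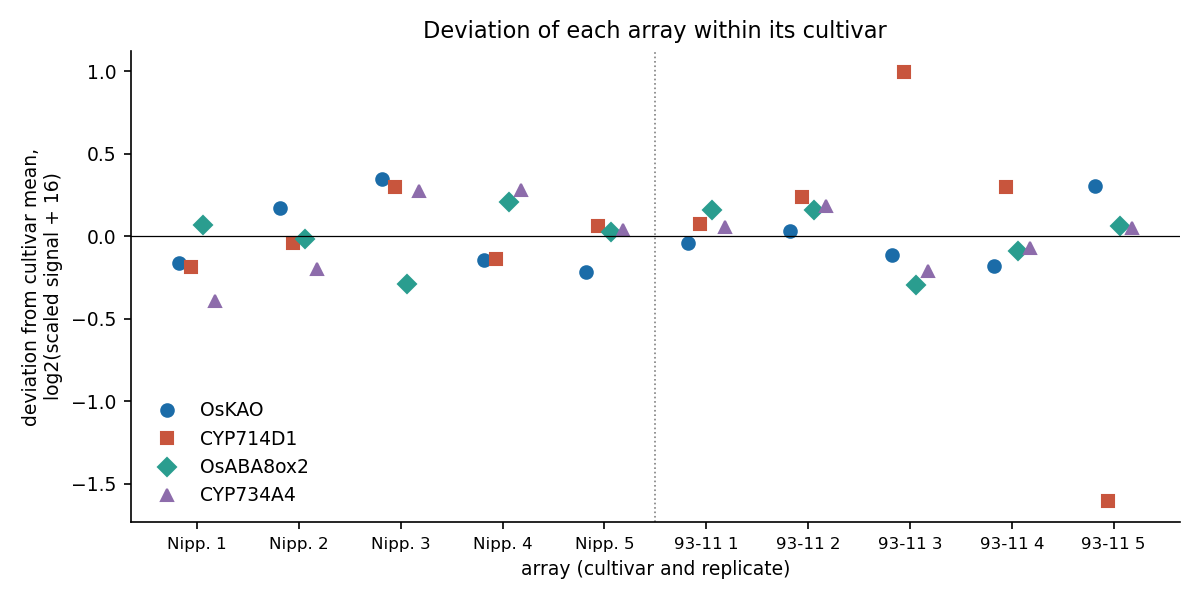
Deviation of each array from its cultivar mean in log2(scaled signal + 16), for the 5 Nipponbare arrays on the left and the 5 93-11 arrays on the right, with 1 symbol per gene. CYP714D1 reaches 0.99 on 93-11 replicate 3 and -1.60 on 93-11 replicate 5, whereas OsKAO, OsABA8ox2 and CYP734A4 stay between -0.39 and 0.34 on all 10 arrays.

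Other genes of the 3 hormone pathways were read from lists of synthesis, inactivation, perception and signalling genes, without the 4 genes above. These lists matched 58 probe sets of 52 genes. As deposited, limma called 0 higher and 5 lower (8.62%) in 93-11, beside 1.66% and 11.9% of all rice probe sets. Before adjustment 3 higher and 10 lower had p under 0.05, and the methods' t-test with the same adjustment called 0 higher and 2 lower. The median difference was -0.18, beside -0.16 over all rice probe sets. After scaling 13 (22.4%) were called higher and 4 (6.9%) lower, beside 7.84% and 9.21%, and the median was 0.14, beside 0.03. The same shares of all rice probe sets stand beside the counts of each list below. In a fit of only the strongly detected probe sets (log10 signal averaging over 2.5), 30 belonged to the lists. Limma called 0 of them higher and 3 lower as deposited, where it called 1.7% and 18.8% of all such rice probe sets. After scaling it called 12 higher and 2 lower, where it called 22.3% and 11.6%.

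In gibberellin synthesis, limma called 0 of 6 probe sets as deposited, 0 had p under 0.05 before adjustment, and the methods' t-test called 0. With scaled arrays 1 was higher and 0 were lower. GA20OX3, a gibberellin 20-oxidase, had deposited signals of 322 ± 77.1 in Nipponbare and 271 ± 47.4 in 93-11 (SD, n = 5 each), a difference of -0.22 (SE 0.18). After scaling its difference was 0.12 (SE 0.13), and it was called on neither scale. OsKS1, a kaurene synthase upstream of OsKAO, was 584 ± 177 and 680 ± 21.0, with a difference of 0.28 (SE 0.21) that was not called. After scaling it was called higher, by 0.62 (limma adjusted p = 0.0032). Its probe set also carries the suffix s_at. Whether either gene differed from OsKAO in its cultivar difference was not tested.

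Gibberellin perception and signalling had 8 probe sets, of which 1 was called lower on both scales and 3 were called higher with scaled arrays. The lower one was OsGAMyb, a MYB transcription factor of the gibberellin response that acts in anthers. Its signals were 361 to 584 in Nipponbare and 151 to 201 in 93-11, with no overlap. The difference was -1.34 (SE 0.17, limma adjusted p = 2.6e-05) as deposited and -1.01 (SE 0.11, adjusted p = 2.3e-05) after scaling, and the call held whichever array was left out. Its probe set has the suffix x_at, which marks probes that can also bind other transcripts, as has that of the brassinosteroid gene D11 given further on. The 3 called higher only after scaling were the receptor gene GID1, the casein kinase gene EL1 and the G protein alpha subunit gene D1, named here after their values were seen. Their differences were 0.38, 0.66 and 0.30 (limma adjusted p = 0.012, 0.00016 and 0.026), and D1 lost its call when any of 5 arrays was left out. A dim second probe set of GID1 lay on the other side, at -0.60 as deposited and -0.38 after scaling, and was not called. The list of gibberellin inactivation genes other than CYP714D1 matched no probe set.

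In abscisic acid synthesis, limma called 0 of 2 probe sets on either scale, 0 had p under 0.05 before adjustment, and the methods' t-test called 0. The deposited signal of OsZEP1, a zeaxanthin epoxidase, was 159 ± 47.2 in Nipponbare and 134 ± 34.5 in 93-11. PDS, a phytoene desaturase of the carotenoid route that feeds the hormone, was 565 ± 165 in Nipponbare and 451 ± 54.0 in 93-11 (SD, n = 5 each for both genes). After scaling OsZEP1 was at 140 ± 24.8 and 153 ± 34.3, and PDS at 494 ± 49.7 and 519 ± 50.3. Their differences were -0.21 and -0.28 as deposited but 0.11 and 0.07 after scaling, so the sign changed with the scale.

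ABA8OX1, the relative of OsABA8ox2 in the same breakdown step, was the single other probe set of its list. Its signals ran from 47.4 to 510 in Nipponbare and from 27.1 to 264 in 93-11, and overlapped widely. The means were 161 ± 199 and 93.2 ± 98.5 (SD, n = 5 each), a difference of -0.52 (SE 0.57) that was not called (limma adjusted p = 0.64), and -0.22 (SE 0.56, adjusted p = 0.86) after scaling. With an SE of this size, a difference as large as that of OsABA8ox2 was not detectable.

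Of 21 abscisic acid perception and signalling probe sets, 2 (9.52%) were called lower as deposited, beside 11.9% of all rice probe sets. With scaled arrays 1 (4.76%) was lower and 5 (23.8%) were higher, beside 9.21% and 7.84%. OsSAPK4, a protein kinase of the family activated by osmotic stress and abscisic acid, was called lower on both scales. Its means were 1629 ± 355 and 1046 ± 180 (SD, n = 5 each), a difference of -0.62 (SE 0.18, limma adjusted p = 0.028), and -0.27 (SE 0.08, adjusted p = 0.033) after scaling. The call was weak, since it was lost on each scale when any of 6 arrays was left out. OsSAPK1, named after its values were seen, was the other one called lower as deposited, with a difference of -0.62 (adjusted p = 0.046), and lost the call when any of 8 arrays was left out. The 5 called higher after scaling were also named after their values were seen. They were the kinase genes OsSAPK7 and OsSAPK9, the receptor gene OsPYL11, the transcription factor gene BZIP23 and ABIL1. ABIL1 was matched by name only and is counted here without a check of its role in this pathway. The differences of these 5 ran from 0.36 for BZIP23, which lost its call when any of 9 arrays was left out, to 1.16 for OsSAPK9. The probe set of OsSAPK9 has the suffix s_at, and its values overlapped between cultivars on both scales.

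**Figure D4:**
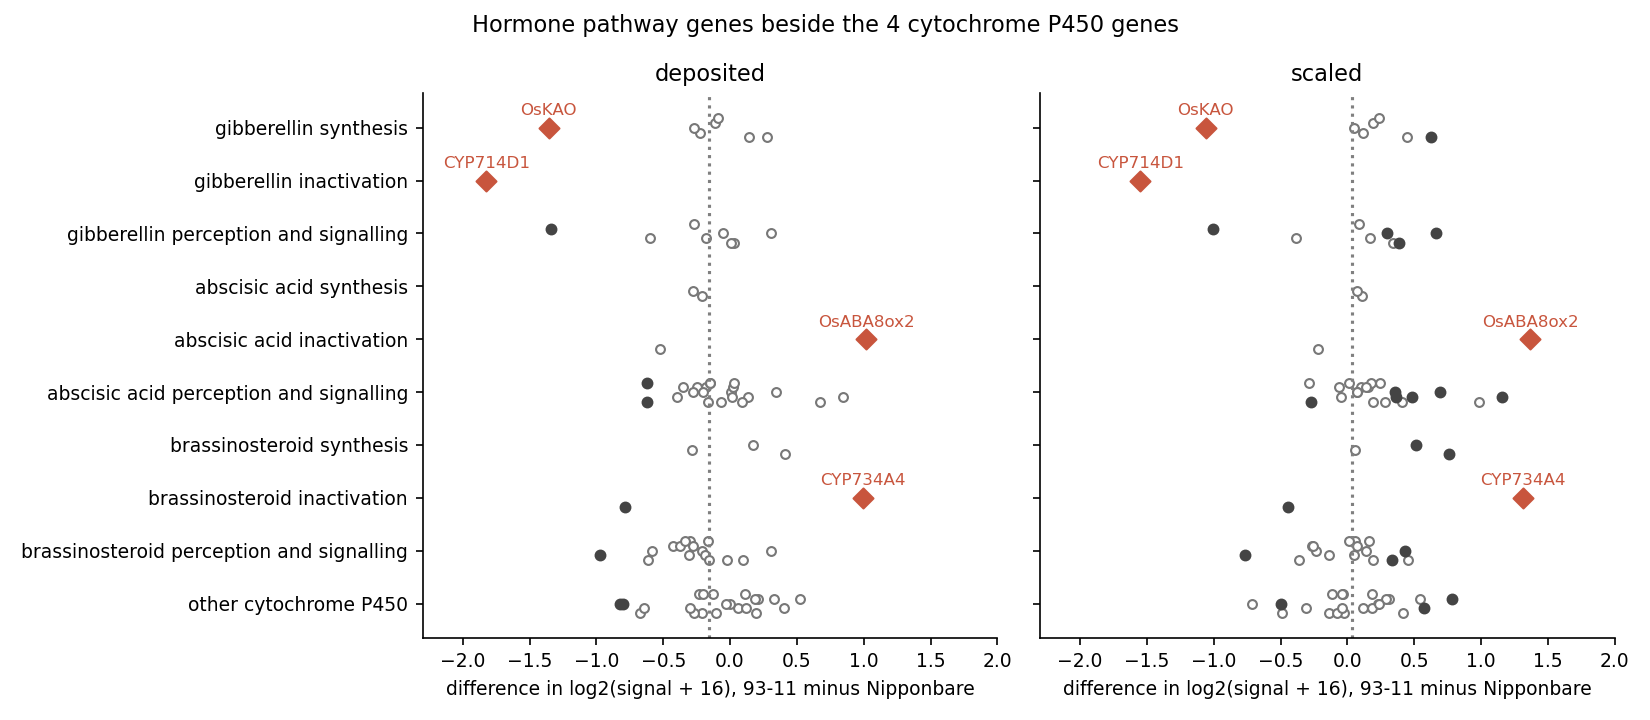
Difference in log2(signal + 16), 93-11 minus Nipponbare, of each hormone pathway and other cytochrome P450 probe set, as deposited (left) and scaled (right). Filled circles were called at a limma adjusted p under 0.05, open circles were not, red diamonds are the 4 chosen genes, and dotted lines are the medians of all rice probe sets. CYP734A4 and CYP734A6 lie on opposite sides of the median on both scales.

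The 3 brassinosteroid synthesis genes matched by the list all averaged over 2.5 in log10 signal in each cultivar. As deposited limma called 0, 1 was higher with p under 0.05 before adjustment, and the methods' t-test called 0. D11, the cytochrome P450 CYP724B1, was 1142 ± 264 in Nipponbare and 1504 ± 257 in 93-11 (SD, n = 5 each), a difference of 0.41 (SE 0.19) that was not called. CYP85A1, a C-6 oxidase of the late steps, was 552 ± 64.1 and 624 ± 87.4, a difference of 0.17 (SE 0.15). After scaling both were called higher, D11 by 0.76 and CYP85A1 by 0.52 (limma adjusted p = 0.0034 and 0.0048), and both calls held whichever array was left out.

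CYP734A6, the relative of CYP734A4 that also inactivates brassinosteroids, was called lower in 93-11, opposite in sign to CYP734A4. Its deposited signals were 299 to 793 in Nipponbare and 203 to 326 in 93-11, so the cultivars overlapped slightly. The means were 495 ± 188 and 268 ± 44.0 (SD, n = 5 each), a difference of -0.79 (SE 0.22, limma adjusted p = 0.027). After scaling they were 427 ± 72.5 and 308 ± 36.9 with no overlap, a difference of -0.45 (SE 0.13, adjusted p = 0.026). The call was lost when any of 4 arrays was left out as deposited and any of 5 after scaling, with adjusted p up to 0.083 and 0.075, and the difference stayed below 0 each time. The methods' t-test with adjustment did not call it on either scale.

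Brassinosteroid perception and signalling had 16 probe sets, with 1 (6.25%) called lower on both scales and 2 (12.5%) called higher with scaled arrays. The lower one was a dim probe set of GSK1, a kinase of the brassinosteroid signalling pathway, at 40.9 ± 20.3 in Nipponbare and 11.9 ± 2.97 in 93-11 (SD, n = 5 each). Its difference was -0.97 (SE 0.24, limma adjusted p = 0.0098) as deposited and -0.77 (SE 0.17, adjusted p = 0.0070) after scaling. The bright probe set of the same gene was at 1331 ± 399 and 1168 ± 246 and was not called on either scale. The probe sets of GSK1 thus disagreed, and the bright one has the suffix x_at, so other transcripts can add to it. Those higher after scaling, named after their values were seen, were the co-receptor gene BAK1, by 0.33, and 1 of 3 dim probe sets of OsIBH1, by 0.43 (limma adjusted p = 0.048). That OsIBH1 call was lost when any of 9 arrays was left out, and its other probe sets were at -0.27 and -0.26 after scaling.

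As deposited, limma called 0 higher and 2 lower among 22 other cytochrome P450 probe sets, beside 1.66% and 11.9% of all rice ones. The 22 probe sets belonged to 18 genes. Before adjustment 1 higher and 4 lower had p under 0.05, and the methods' t-test called 0 higher and 1 lower. With scaled arrays 2 were higher and 1 lower, beside 7.84% and 9.21%. CYP71P1, which makes serotonin from tryptamine, was called lower on both scales at 1 of its 2 probe sets. That probe set was at 134 ± 27.9 in Nipponbare and 69.4 ± 13.5 in 93-11 (SD, n = 5 each), a difference of -0.80 (SE 0.20, limma adjusted p = 0.012), and -0.50 (SE 0.14, adjusted p = 0.022) after scaling, when it lost the call if any of 4 arrays was left out. CYP714C1, a relative of CYP714D1 named after its values were seen, had 2 dim probe sets that disagreed: one was called lower as deposited, at -0.82 (limma adjusted p = 0.044), and the other higher after scaling, at 0.78 (adjusted p = 0.0090). The first call was lost when any of 7 arrays was left out, with adjusted p up to 0.12. None of the 22 probe sets averaged over 2.5 in log10 signal in each cultivar.

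The genes next to the 4 cytochrome P450 genes on the chromosomes were read as a picture of their surroundings, 3 annotated genes on each side. Of 24 such genes 12 were measured, by 15 probe sets. As deposited limma called 0, beside 1.66% higher and 11.9% lower of all rice probe sets. Before adjustment 0 of the 15 were higher and 3 lower at p under 0.05, and the methods' t-test called 0. After scaling 2 were called higher and 0 lower, beside 7.84% and 9.21%, and the differences ran from -0.15 to 0.70. The higher ones, named after their values were seen, were OSEYA1 beside OsKAO, by 0.26 (limma adjusted p = 0.042), and LOC4339130, the second gene from CYP714D1, by 0.70 (adjusted p = 0.028). No neighbour of OsKAO or CYP714D1 was called lower, which says little with so few probe sets. The transcription factor gene TRAB1, 3 genes from OsABA8ox2, was at 1434 ± 279 and 1094 ± 253 (SD, n = 5 each) as deposited. Its difference was -0.40 as deposited and -0.04 after scaling, and it was not called on either scale.

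For each of the 4 genes, the genes most like it across arrays were taken as the 3 with the highest Pearson r of scaled deviations from the cultivar mean, among 1608 named probe sets whose log10 signal averaged over 2.5. With 10 arrays and so many candidates some high values arise in any case, and the coefficients are descriptions without a test. OsKAO was most like JAZ4, a repressor of the jasmonate response (r = 0.92), then MAPK6 (0.84) and CSTLP1 (0.83). After scaling JAZ4, like OsKAO, was highest on replicate 3 in Nipponbare, at 642, and on replicate 5 in 93-11, at 885. JAZ4 was picked for following OsKAO over these arrays, so the shared high arrays come from that choice. The probe set of JAZ4 has the suffix x_at. The cultivar difference of JAZ4 was nevertheless 0.48, opposite in sign to that of OsKAO.

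CYP714D1 was most like ORR2, a response regulator gene of cytokinin signalling (r = 0.99, and 0.97 without both arrays numbered 5). After scaling ORR2 was at 944 on 93-11 replicate 5, at 1739 on 93-11 replicate 3 and at 1471 to 1508 on the other three 93-11 arrays. ORR2 was picked for following CYP714D1 over these arrays, so the shared low and high array come from that choice. OsC3H44 (0.94) and SHL2 (0.92), an RNA-dependent RNA polymerase gene needed for shoot formation, were next, but at 0.75 and 0.58 without the arrays numbered 5 they rested more on these arrays.

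OsABA8ox2 was most like OsbZIP08 (r = 0.89), RFL (0.87), the rice LEAFY gene of panicle branching, and MRS2-G (0.86), a magnesium transporter gene. All 3 coefficients were between 0.88 and 0.89 without the arrays numbered 5. RFL was also 1.03 higher in 93-11 after scaling (limma adjusted p = 0.00017), whereas OsbZIP08 was lower there, at -0.65, by the same fit. CYP734A4 was most like DL (0.91), a YABBY gene of carpel and midrib formation, then CIPK32 (0.86) and OsSPPL4 (0.86). Their coefficients were 0.90 to 0.94 without the arrays numbered 5. DL was at 505 to 670 in Nipponbare and 636 to 836 in 93-11 after scaling and was not called.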

How the data were processed

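Total RNA of young panicles was labelled as biotinylated cRNA and hybridised to Affymetrix GeneChip rice arrays. The deposited values are linear signal intensity values per probe set, 1 per array, made by the authors with GCOS 1.3 per the submitters' processing notes; the scaling and detection settings were not given in the sources used here. Of 57381 probe sets, 123 control probe sets were left out, 22436 rice probe sets were paired with 1 gene, 95 with several and 34727 with none. Names and chromosomes came from RefSeq (assembly ASM3414082v1) through the gene identifiers, and 8 matches to lists through an alias of another gene were left out or moved. No column was left unmapped.

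The 4 genes, the gene lists and the tests were chosen with earlier results of these data known. 93-11 was set against Nipponbare with limma 3.58.1 (R 4.3.3; lmFit and eBayes with intensity trend) on log2(signal + 16), two-sided, adjusted by Benjamini-Hochberg over 57258 rice probe sets with a threshold of 0.05, as deposited and after scaling each array to the common mean trimmed by 2% at each end. Tables used pandas 2.3.3 and the exact permutation test scipy 1.17.1. The fit was tested on simulated data, drawn as independent noise from the scaled values. These held no difference in array level between cultivars, so that test does not cover the fit of the deposited values. From each hormone list, the text names the 2 probe sets with the largest rise and the 2 with the largest fall called on both scales (3 and 3 for the other cytochrome P450 genes), or where none was, the 2 of highest mean signal, and for each of the 4 genes the 3 most alike. The labels call the replicates biological, and no array pair held identical values. Precision is limited by the 5 arrays of each cultivar. Alternatives changed the scaling, the added constant, the filter on low signals, the variance model, the test (the methods' t-test, an analysis of variance that the study applied to single probes), a block for replicate number and the arrays used.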

Additional observations from a re-analysis of the deposited data

Results flagged for a closer look

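The lowest 93-11 value of CYP714D1, on replicate 5, lay far from the other 4 of that cultivar on the log2 scale of the signal with nothing added. Its signal was 3.80 as deposited and 4.48 after scaling, and its gap to the nearest array was 0.758 and 0.755 of the group's whole range, above the limit of 0.71 for 5 values. It did not pass that limit on log2(signal + 16) or on the linear scale. Chance alone passes such a limit in about 1 of 20 groups, and 48 groups of 5 values were looked at, 8 on each scale. The same array had the highest actin 3' to 5' ratio of all 10, at 4.84, and its GAPDH ratio of 6.15 was exceeded only by the 6.31 of 93-11 replicate 1. The part of RNA quality in this value was not tested.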

How the results depend on the processing

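The 4 differences kept their sign under every alternative run. The genes were selected on these differences and their cultivars do not overlap on either scale. Leaving out arrays or changing the added constant could therefore not change the sign, and only the sizes are informative there. OsKAO was -0.93 with 64 added and -0.84 after quantile normalization as deposited, and -0.72 with 64 added after scaling. OsABA8ox2 was 1.39 after quantile normalization and 1.37 after scaling. CYP734A4 was 0.74 with 64 added, 1.48 after quantile normalization and 1.31 after scaling, and 0.98 with 64 added after scaling. Leaving out each array in turn gave -1.50 to -1.20 for OsKAO, -2.08 to -1.44 for CYP714D1, 0.93 to 1.13 for OsABA8ox2 and 0.89 to 1.06 for CYP734A4 as deposited, and -1.14 to -0.97, -1.80 to -1.15, 1.29 to 1.44 and 1.21 to 1.38 after scaling. CYP714D1 was -1.19 with 64 added and -2.39 with 1 added as deposited, and -1.002 with 64 added after scaling. All rice probe sets called higher as deposited went from 951 to 5768 (quantile), 4490 (trimmed mean), 1513 (spike-in controls), 486 (mean log10 signal above 2.0) and 203 (above 2.5), and those called lower from 6788 to 3928 and 2243 with these filters. After scaling, the filter at 2.5 left 2686 higher and 1393 lower, and that at 2.0 left 2686 lower. Hormone list probe sets called higher as deposited went from 0 to 17 (quantile), 3 (spike-in controls) and 1 (1 added, filter at 2.0, robust variance), and those lower from 5 to 3 (filter at 2.5, spike-in controls) and 2 (methods' t-test). After scaling the filter at 2.5 left 2 lower. Without each array in turn, the deposited counts were 0 to 1 higher and 2 to 6 lower, and the scaled counts 10 to 12 higher and 2 to 5 lower. The 6 arrays whose loss left 2 or 3 lower as deposited were Nipponbare replicates 1, 3 and 4 and 93-11 replicates 2, 4 and 5. The cause was not tested, except that filters leave fewer probe sets. The difference in array level was -82.4 to -39.2 without each array in turn, with exact permutation p from 0.016 to 0.063. With the replicate number as a block, the deposited values gave 886 probe sets higher and 6543 lower, and the scaled values 5205 and 5484. Same-numbered arrays had deviations correlated at -0.13 to 0.54, highest for replicates 5 (0.54) and 4 (0.51), and other pairings at -0.39 to 0.48. Of 10 arrays, 4 were closest to their own number. The numbers were not taken as pairs because nothing in the labels says that they mark a shared day or batch. Whether they do was not tested. Signals of dim probe sets, such as CYP714C1, limit what can be compared there.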
